A study of Mus musculus with 9 samples.

Results

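The rod phototransduction genes are 9 mouse genes taken by symbol from the deposited count table, which lists 50764 genes: Gnat1, Gngt1, Pde6a, Pde6b, Pde6g, Cnga1, Slc24a1, Sag and Pdc. All 9 passed the filter on low counts, under which 15609 genes were tested. The members were measured in 9 libraries of poly-A RNA, 3 each from the groups Olig2, Olig3 and GFP. Every library came from wild-type adult male mice whose optic nerve had been crushed 14 days earlier, so the crush is shared by all groups and none was uninjured. The labels give day 14 for the injection of virus, as for the crush, in all 9 libraries. The eyes had received 1.5 µL of AAV2, an adeno-associated virus, carrying Olig2, Olig3 or GFP. Both factors belong to the basic helix-loop-helix family of transcription regulators, and GFP, a fluorescent protein, is the control. Retinal cells were enriched on beads against CD90.2 (Thy1), a surface protein used to select retinal ganglion cells. Green cells were then picked by hand, from 10 to 20 per library depending on the part of the labels read. The sources used here state neither the promoter that drives the virus nor how many animals stand behind each group. The p-values are therefore set by the spread among these 9 libraries, and part or all of it may be technical.

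Rod phototransduction converts the capture of a photon into a change of membrane current. The light-activated visual pigment switches on the G protein transducin, whose alpha subunit pulls the inhibitory gamma subunits away from a phosphodiesterase, and the phosphodiesterase then degrades cyclic GMP. Falling cyclic GMP closes the cation channels of the outer segment while a sodium, calcium and potassium exchanger goes on removing calcium, and arrestin and regulators of transducin end the response. Among the members, Gnat1 codes for the alpha subunit and Gngt1 for the gamma subunit of rod transducin. Pde6a and Pde6b code for the catalytic subunits of the rod phosphodiesterase and Pde6g for its inhibitory subunit. Cnga1 codes for the channel's alpha subunit, Slc24a1 for the exchanger, Sag for rod arrestin, and Pdc for phosducin, which binds the transducin beta and gamma subunits. Rods, the most abundant neurons of the mouse retina, are the cells that these genes are known for there, and ganglion cells are not.

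The upstream sequences of 3 members are shown because the members are genes of 1 cell type whose RNA was high or low in the same libraries here. RefSeq's table (GRCm38.p6) gave a promoter for 6 of the 9 members. The window searched was 300 bases, from 250 before the transcription start to 50 after it, on both strands. The motifs were TAATCC, the core bound by OTX-family factors such as CRX, and TGCTGA, a partial site of the NRL and MAF family, which do not overlap each other in these windows. Capitals mark the matches, and a TAATCC on the opposite strand reads GGATTA.
Sag, chr1:87803430-87803679, plus strand: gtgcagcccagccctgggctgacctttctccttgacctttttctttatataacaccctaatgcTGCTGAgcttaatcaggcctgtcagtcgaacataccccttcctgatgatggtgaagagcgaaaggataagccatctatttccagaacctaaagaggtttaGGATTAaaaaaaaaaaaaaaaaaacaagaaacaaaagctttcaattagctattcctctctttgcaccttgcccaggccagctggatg
Gngt1, chr6:3993758-3994007, plus strand: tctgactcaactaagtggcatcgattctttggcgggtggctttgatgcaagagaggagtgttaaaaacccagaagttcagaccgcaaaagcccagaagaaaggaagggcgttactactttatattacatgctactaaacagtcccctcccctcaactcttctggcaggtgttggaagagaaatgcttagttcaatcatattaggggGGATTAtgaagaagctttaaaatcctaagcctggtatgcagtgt
Pde6b, chr5:108388123-108388372, plus strand: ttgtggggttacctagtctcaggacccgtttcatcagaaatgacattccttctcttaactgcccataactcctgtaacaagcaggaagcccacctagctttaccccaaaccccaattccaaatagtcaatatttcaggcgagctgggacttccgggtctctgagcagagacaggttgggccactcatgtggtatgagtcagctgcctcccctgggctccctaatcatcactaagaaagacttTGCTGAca
Sag held both motifs, with GGATTA at -87 to -82 and TGCTGA at -187 to -182 counted from the start. Gngt1 held GGATTA at -44 to -39, and Pde6b held TGCTGA at -8 to -3. Cnga1, not printed, held TAATCC at -228 to -223, and neither motif was found for Slc24a1 or Pdc. Positions count from RefSeq's start. For Gngt1 and Cnga1 that start and the match lie inside the span that GENCODE gives for the gene, and so after GENCODE's first start. TAATCC was thus in 3 of the 6 members' windows and in 7.06% of the 32851 windows of the table, and TGCTGA in 2 of 6 and in 19.5%. A match describes letters only and is not a measured binding site.

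The members lie on 6 chromosomes of the build mm10 (GENCODE release M21, 1-based). Gnat1 (ENSMUSG00000034837, chr9:107674474-107679712) and Slc24a1 (ENSMUSG00000034452, chr9:64922861-64951607) are both on the minus strand. Sag (ENSMUSG00000056055, chr1:87803680-87845158) and Pdc (ENSMUSG00000006007, chr1:150319417-150333906) are both on the plus strand. Pde6b (ENSMUSG00000029491, chr5:108388391-108432397) is on the plus strand and Cnga1 (ENSMUSG00000067220, chr5:72603696-72644275) on the minus strand. Gngt1 (ENSMUSG00000029663, chr6:3993792-3997436) and Pde6a (ENSMUSG00000024575, chr18:61220315-61289924) are on the plus strand, and Pde6g (ENSMUSG00000025386, chr11:120447605-120453500) on the minus strand. Values are counts of reads over annotated genes, so no exon or isoform is read apart. Genes that overlap Pde6a, Cnga1 and Pdc share 0 exon bases with them.

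Total counts ran from 5355691 to 6979851 per library. Levels are given in CPM, counts divided by the library total after TMM scaling, with factors from 0.749 to 1.19. A gene with a count of 0 may hold up to 3 counts, which is 0.381 to 0.750 CPM. Amplification ran over 20 cycles and no molecular identifiers were used, so that limit covers counting error only. Olig2 had 114, 97 and 21 counts in the Olig2 libraries, 6, 4 and 0 in the Olig3 libraries and 0 in each GFP library. Olig3 had 172, 113 and 597 counts in the Olig3 libraries, 0, 5 and 7 in the Olig2 libraries and 13, 0 and 40 in the GFP libraries. Olig2 library 2, Olig2 library 3 and Olig3 library 2 stood apart by Malat1, a nuclear RNA, which took 11.7, 6.15 and 8.54% of their counts against 2.65 to 4.14% in the other 6. Gm37376, which overlaps Malat1, had 0.941 to 1.02 times its counts, so reads of the pair are not separable. Olig3 library 2 was closer to those Olig2 libraries (chi-square per degree of freedom 19.2 and 19.4) than to either library of its own group (86.1 and 113). Olig3 libraries 1 and 3 had 16188 and 14434 detected genes, fewer than the 18184 to 21338 of the rest. The members' results that rest on these libraries are also given without them, and values of the gene lists are from all 9 libraries unless stated.

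RNA of the rod cascade was abundant in every library, although the cells had been picked as ganglion cells. The 9 genes took 4.49, 6.24 and 8.08% of all counts in the Olig2 libraries, 4.63, 8.58 and 3.56% in the Olig3 libraries, and 2.44, 3.54 and 2.88% in the GFP libraries. The lowest member count in any library was 1042, for Pde6a. Thy1, the antigen of the beads, lay at 4.99, 21.9 and 8.25 CPM in the Olig2 libraries, at 2.36, 8.25 and 0 in the Olig3 libraries, and at 27.8, 8.63 and 12.5 in the GFP libraries. Pou4f2, a transcription factor of ganglion cells, had counts of 0, 14 and 0 in the Olig2 libraries, 0, 3 and 0 in the Olig3 libraries and 0, 26 and 0 in the GFP libraries, too few to be tested. The 12 ganglion cell markers summed to 176 to 522 CPM in the Olig2 group, 82.0 to 394 in the Olig3 group and 813 to 1928 in the GFP group. The 9 rod genes summed to 41154 to 98235, 30898 to 114886 and 21419 to 31354 CPM in the same groups. In such pools, more cells of a type and more RNA per cell cannot be told apart.

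**Figure D1:**
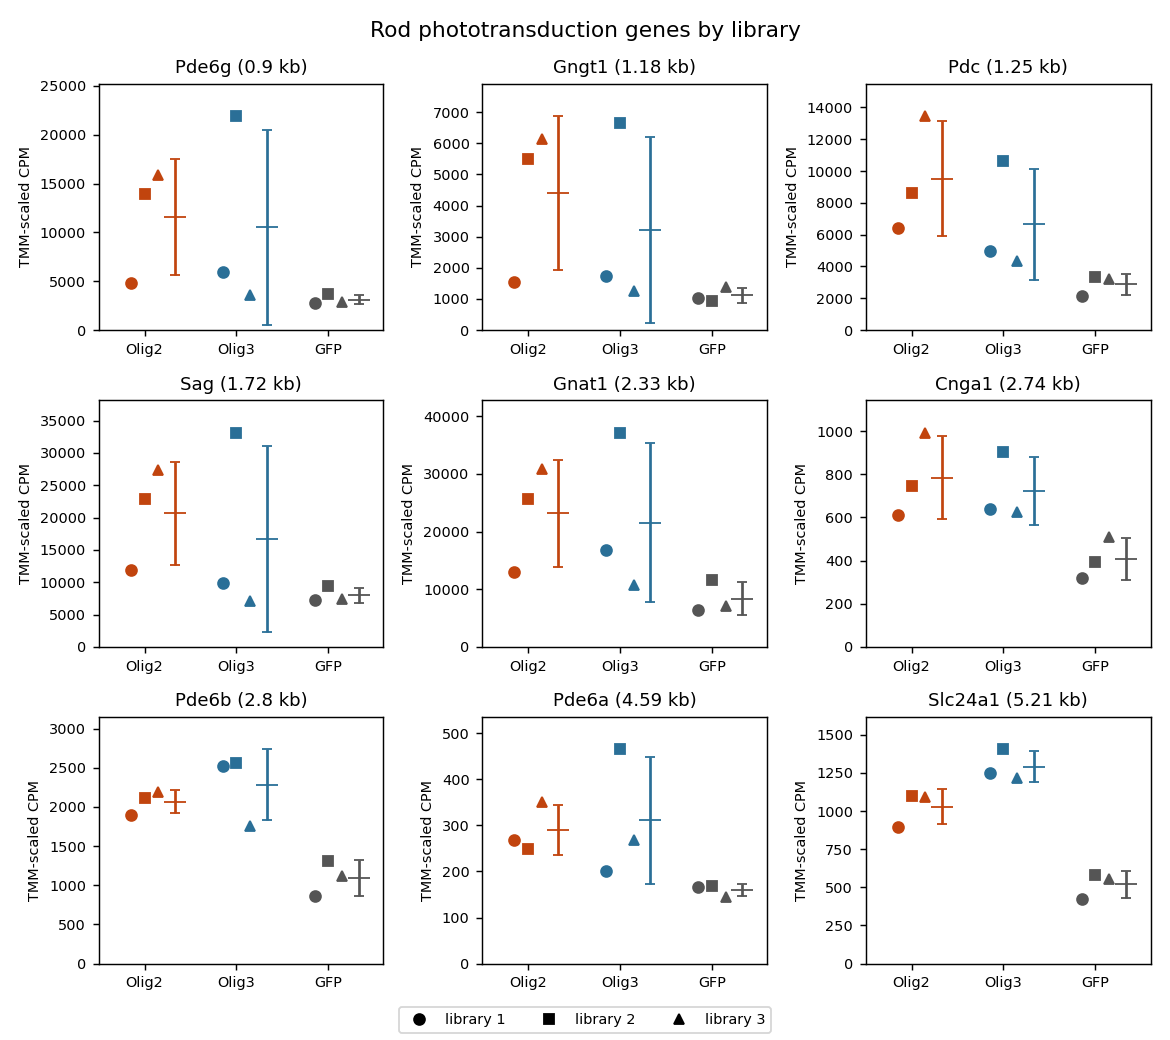
Level of each rod phototransduction gene in every library, as TMM-scaled CPM on a linear axis from 0, ordered by the length of the principal transcript (kb). Each point is a library, its shape gives the library number, and bars are the mean and SD of 3 libraries. The Olig2 points lie above the GFP points in all 9 panels, while Olig3 library 2 lies far above the other Olig3 libraries for the short transcripts.

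Per kilobase of the principal transcript, levels of the members spanned a wide range within each group. Such levels compare genes only where reads cover transcripts evenly, which counts per gene do not show. In the Olig2 libraries Pde6g averaged 12823 ± 6596 CPM per kb, Sag 12006 ± 4631, Gnat1 9944 ± 3961 and Pdc 7627 ± 2901 (SD, n = 3 here and below), with ranges that overlapped from neighbour to neighbour. Gngt1 had 3720.5 ± 2097, Pde6b 738 ± 52.7, Cnga1 286 ± 70.6, Slc24a1 197 ± 22.4 and Pde6a 63.0 ± 11.9 CPM per kb in the same libraries. In the Olig3 libraries the order of the means was the same, from Pde6g at 11673 ± 11077 to Pde6a at 67.8 ± 29.9 CPM per kb. Cnga1 at 264 ± 57.3 and Slc24a1 at 247 ± 19.3 CPM per kb overlapped there. In the GFP libraries Sag led at 4653 ± 679 CPM per kb, before Gnat1 at 3605 ± 1206 and Pde6g at 3478 ± 545, and the ranges of these 3 overlapped. Below them the ranges of neighbours in the GFP group were separate: Pdc had 2313 ± 524 CPM per kb, Gngt1 944 ± 202, Pde6b 391 ± 80.0, Cnga1 148 ± 35.2, Slc24a1 99.5 ± 16.6 and Pde6a 34.8 ± 2.92. In every group the transducin alpha subunit and arrestin were thus far above the channel and the exchanger per kilobase. The means of the 5 members under 2.5 kb stood above those of the 4 longer ones in every group. The part of length in that order was not tested. The order depends on the length used. Per kilobase of all annotated exons, the GFP means were 2771 CPM for Gnat1, 1351 for Pde6g, 898 for Sag and 860 for Pdc. On that scale Pde6b had 217, Slc24a1 99.5, Cnga1 64.3 and Pde6a 34.1. The catalytic subunits were unequal as well, with Pde6a at 0.0719 to 0.0979 times the per-kilobase level of Pde6b in the Olig2 libraries, 0.0486 to 0.111 times in the Olig3 libraries and 0.0785 to 0.119 times in the GFP libraries.

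The comparison of Olig2 with GFP asks how RNA levels differed after delivery of Olig2 in place of the control protein. All 9 rod phototransduction genes were higher in each Olig2 library than in any GFP library. Folds of the group means ran from 1.81 for Pde6a to 3.94 for Gngt1. None of the 9 passed edgeR's quasi-likelihood test at an adjusted p under 0.05, which 0.0513% of all genes passed. An unadjusted p under 0.05 with a higher level was found for 9 of 9, against 2.61% of all genes tested, and libraries that did not overlap, with Olig2 higher, for 9 of 9, against 8.47% of all genes. The members' median log2 change was 1.37, beside -0.0005 for all genes.

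The transducin subunits were among the members with the larger differences. Gnat1 had 12919, 25706 and 30823 CPM in the Olig2 libraries, against 6435, 11609 and 7134 in the GFP libraries. The lowest Olig2 library stood just above the highest GFP library, and the other Olig2 libraries were more than 2-fold above it. The means were 23149 ± 9222 in the Olig2 group and 8393 ± 2807 in the GFP group (2.76-fold; edgeR log2 change 1.46, SE 0.50, unadjusted p = 0.0123, Benjamini-Hochberg adjusted p = 0.731). Gngt1 had 1560.3, 5507 and 6137 CPM in the Olig2 libraries, against 1019.9, 942 and 1389.6 in the GFP libraries. Here Olig2 library 1 lay close to the GFP range and the rest far above it (log2 change 1.98, SE 0.62, edgeR adjusted p = 0.678). Phosducin, which binds transducin's beta and gamma subunits, followed the same order of libraries less steeply. Pdc had 6407, 8628 and 13474 CPM in the Olig2 libraries, against 2131, 3314 and 3203 in the GFP libraries. The groups were well apart, and the log2 change was 1.72 (SE 0.41, unadjusted p = 0.00127, edgeR adjusted p = 0.404).

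Of the phosphodiesterase subunits, the inhibitory subunit differed more between the groups than the catalytic ones. Pde6g had 4778, 13949 and 15895 CPM in the Olig2 libraries, against 2810.4, 3694 and 2886 in the GFP libraries (log2 change 1.88, SE 0.62, edgeR adjusted p = 0.712). Pde6b had 1902, 2108 and 2187 CPM in the Olig2 libraries, against 858, 1305 and 1116 in the GFP libraries (log2 change 0.92, SE 0.25, edgeR adjusted p = 0.511). Pde6a had 268, 248 and 351 CPM in the Olig2 libraries, against 167, 168 and 144 in the GFP libraries (log2 change 0.86, SE 0.29, edgeR adjusted p = 0.757). The Olig2 libraries thus varied more than 3-fold in the inhibitory subunit but by a coefficient of variation of 7.14% in Pde6b. Per kilobase, Pde6g stood at 7.81, 20.6 and 22.6 times Pde6b in the Olig2 libraries, against 10.2, 8.81 and 8.04 times in the GFP libraries. Library 1 of the Olig2 group was below every GFP library in this ratio and the other Olig2 libraries were above all of them.

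Of the channel and the exchanger, Slc24a1 had little spread within the groups and Cnga1 more. Cnga1 had 612, 748 and 994 CPM in the Olig2 libraries, against 317, 393 and 509 in the GFP libraries (log2 change 0.95, SE 0.27, edgeR adjusted p = 0.564). Without TMM scaling the Cnga1 libraries overlapped, at 578 to 818 CPM in the Olig2 group and 362 to 602 in the GFP group, and it was the only member for which they did. Slc24a1 had 894, 1097 and 1094 CPM in the Olig2 libraries, against 420.4, 584 and 552 in the GFP libraries. It had the smallest p of the 9 (log2 change 0.99, SE 0.22, unadjusted p = 0.000658, edgeR adjusted p = 0.354). Arrestin, which binds the activated pigment, had the largest p. Sag had 11814, 22821 and 27279 CPM in the Olig2 libraries, against 7259, 9345 and 7392 in the GFP libraries (log2 change 1.37, SE 0.54, unadjusted p = 0.0264, edgeR adjusted p = 0.923). The arrangement of its libraries was that of Gnat1, with Olig2 library 1 nearest to the GFP group.

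**Figure D2:**
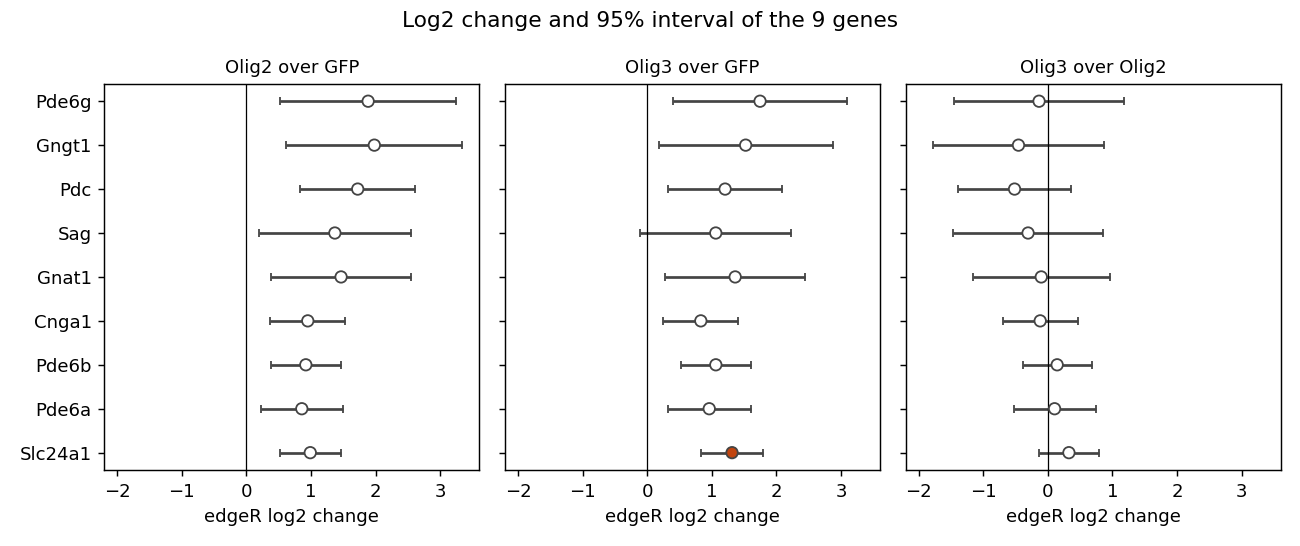
Log2 change of each gene in edgeR's quasi-likelihood fit for the 3 comparisons, with 95% intervals, and genes ordered by transcript length from the shortest at the top. A filled point passed the adjusted test over all genes, which only Slc24a1 did, in Olig3 over GFP. The intervals of the longer transcripts are the narrower ones.

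These differences depended on the pair of Olig2 libraries rich in Malat1. With Olig2 libraries 2 and 3 and Olig3 library 2 left out, the median log2 change of the members over GFP became 0.63, from a single Olig2 library. Gngt1 then had a log2 change of 0.49, Pde6g of 0.62, Sag of 0.57, Gnat1 of 0.63 and Cnga1 of 0.60. The longer transcripts other than Cnga1 were closer to their values with all libraries, with 0.81 for Pde6b, 0.75 for Pde6a and 0.79 for Slc24a1. Pdc had 1.16. All 9 changes kept their sign. Scaling by library totals alone gave a median of 0.94 for the members and -0.36 for all genes, a distance of 1.30 against 1.37 with TMM scaling. By other tools, DESeq2 called 3 of the 9 (Pde6b, Slc24a1 and Pdc), limma-voom 0, and edgeR without a filter on low counts 6 (Gnat1, Gngt1, Pde6g, Slc24a1, Sag and Pdc). Over all genes these called 58 of 29057, 4 of 15609 and 79 of 29429 as higher, in that order.

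The members split by transcript length in how they varied, a pattern picked out after the values had been seen. The 5 shorter transcripts, of 0.9 to 2.33 kb (Pde6g, Gngt1, Pdc, Sag and Gnat1), had log2 changes over GFP of 1.37 to 1.98 in the Olig2 group. The 4 longer ones, of 2.74 to 5.21 kb (Cnga1, Pde6b, Pde6a and Slc24a1), had 0.86 to 0.99. The summed counts of the short set were 10.2, 18.2 and 20.2 times those of the long set in the Olig2 libraries. The ratio was 8.53, 20.5 and 6.98 in the Olig3 libraries and 11.1, 11.8 and 9.48 in the GFP libraries. The 3 libraries above 18 were the 3 rich in Malat1, and the other 6, of all groups, lay between 6.98 and 11.8. Across all genes with a mean of at least 100 CPM the median log2 change of Olig2 over GFP was 0.21 for 284 transcripts under 1.5 kb, 0.001 for 458 from 1.5 to 2.5 kb, and 0.09 for 785 of 2.5 kb or more. The part of Malat1 or of transcript length in the members' differences was not tested.

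**Figure D3:**
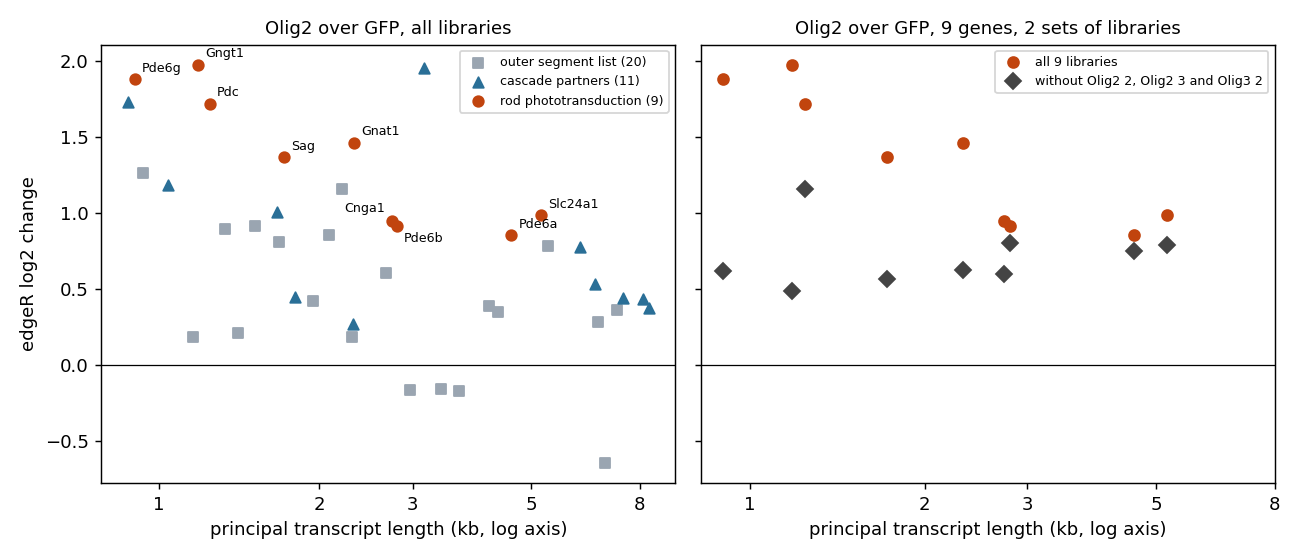
Log2 change of Olig2 over GFP against the length of the principal transcript (kb, log axis). The left panel shows the 9 rod phototransduction genes with the 11 cascade partners and the 20 outer segment genes, and the right panel the 9 genes with all libraries and without the 3 rich in Malat1. With all libraries the 5 short transcripts lie between 1.37 and 1.98 and the 4 long ones between 0.86 and 0.99, and without those libraries all but Pdc lie between 0.49 and 0.81.

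The comparison of Olig3 with GFP puts the same question for Olig3. The libraries compared share the GFP group with the preceding comparison, so the results are not independent of each other. The exchanger gene Slc24a1 rose with Olig3 and was the 1 member of 9 that passed edgeR's test, which 0.205% of all genes passed in either direction and 0.0961% as higher. All 9 had higher means, with folds from 1.78 for Cnga1 to 3.36 for Pde6g, and a median log2 change of 1.21 beside -0.06 for all genes. At an unadjusted p under 0.05 there were 8 of 9, against 5.76% of all genes as higher, and the libraries did not overlap for 5 of 9 (Pde6a, Pde6b, Cnga1, Slc24a1 and Pdc), against 7.18%.

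Slc24a1, which extrudes calcium from the outer segment, had 1249, 1404 and 1215 CPM in the Olig3 libraries, against 420.4, 584 and 552 in the GFP libraries. Every Olig3 library was more than 2-fold above every GFP library, and the means were 1289.5 ± 101 in the Olig3 group and 519 ± 86.7 in the GFP group (2.49-fold; log2 change 1.31, SE 0.22, unadjusted p = 6.18e-05, edgeR adjusted p = 0.0363). Its coefficient of variation in the Olig3 group, 7.81%, was the lowest of the 9, and the library rich in Malat1 did not stand far above the others. The change was 1.24 without the 3 libraries rich in Malat1, but the adjusted p was then 0.0938. The call was lost in 13 of 20 alternatives, among them 8 of the 9 fits that left out a single library, with adjusted p of 0.0226 to 0.159 over those 9 and 7.1e-08 to 0.192 over all 20. The exception was the fit without Olig3 library 2, at 0.0226.

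The phosphodiesterase catalytic subunits and the channel gave values of similar size without passing the test. Pde6b had 2523, 2564 and 1762 CPM in the Olig3 libraries, against 858, 1305 and 1116 in the GFP libraries (log2 change 1.06, SE 0.25, edgeR adjusted p = 0.129). Pde6a had 201, 465 and 267 CPM in the Olig3 libraries, against 167, 168 and 144 in the GFP libraries (log2 change 0.96, SE 0.29, edgeR adjusted p = 0.248). Cnga1 had 639, 904 and 626 CPM in the Olig3 libraries, against 317, 393 and 509 in the GFP libraries (log2 change 0.83, SE 0.27, edgeR adjusted p = 0.266). For all 3 genes the groups were apart, and Olig3 library 2 was the highest. Pdc was apart as well, with 4996, 10641 and 4316 CPM in the Olig3 libraries, against 2131, 3314 and 3203 in the GFP libraries (log2 change 1.21, SE 0.40, edgeR adjusted p = 0.281).

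A further 4 members overlapped between the groups, and Olig3 library 2 set their means. Gnat1 had 16738, 37178 and 10803 CPM in the Olig3 libraries, against 6435, 11609 and 7134 in the GFP libraries (log2 change 1.36, SE 0.49, edgeR adjusted p = 0.311). Gngt1 had 1749.6, 6643 and 1248 CPM in the Olig3 libraries, against 1019.9, 942 and 1389.6 in the GFP libraries (log2 change 1.52, SE 0.62, edgeR adjusted p = 0.355). Pde6g had 5941, 21940 and 3635 CPM in the Olig3 libraries, against 2810.4, 3694 and 2886 in the GFP libraries (log2 change 1.75, SE 0.62, edgeR adjusted p = 0.304). In each of these genes Olig3 library 3 lay inside the range of the GFP group and Olig3 library 2 lay far above it. Sag went further, with 9922, 33147 and 7024 CPM in the Olig3 libraries, against 7259, 9345 and 7392 in the GFP libraries, so that Olig3 library 3 was below every GFP library (log2 change 1.06, SE 0.53, unadjusted p = 0.0710, edgeR adjusted p = 0.465). Sag was the member without an unadjusted p under 0.05.

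Without Olig3 library 2 the median log2 change of the members over GFP became 0.64, with 0.08 for Sag, 0.43 for Gngt1, 0.62 for Pde6g, 0.69 for Pdc and 0.72 for Gnat1, and with 0.97 for Pde6b and 1.25 for Slc24a1. Without Olig3 libraries 1 and 3, those with fewest genes detected, the median became 1.90, from a single library, and 0 members were called. With all libraries, DESeq2 and limma-voom each called 2 of the 9, Pde6b and Slc24a1, and edgeR without a filter 8, all but Cnga1. Over all genes these called 255 of 29057, 40 of 15609 and 194 of 29429 as higher, in that order.

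The direct comparison of Olig3 with Olig2 asks where the factors differed. None of the 9 members passed edgeR's test, which 0.0384% of all genes passed, none had an unadjusted p under 0.05 (2.07% of all genes as higher and 3.05% as lower), and DESeq2, limma-voom and edgeR without a filter called 0 as well. Log2 changes of Olig3 over Olig2 ran from -0.51 for Pdc to 0.33 for Slc24a1, with a median of -0.12, beside -0.06 for all genes. For every member the 95% interval of the log2 change held values on both sides of 0. For Slc24a1 it was -0.14 to 0.79 (edgeR adjusted p = 0.934), for Pde6b -0.39 to 0.68, for Cnga1 -0.70 to 0.46 and for Pde6a -0.53 to 0.74. For the short transcripts it was -1.39 to 0.36 for Pdc, -1.16 to 0.96 for Gnat1, -1.46 to 0.85 for Sag, -1.45 to 1.18 for Pde6g and -1.77 to 0.86 for Gngt1. Slc24a1 was the 1 member of 9 whose libraries did not overlap, at 1215 to 1404 CPM in the Olig3 group and 894 to 1097 in the Olig2 group, against 4.41% of all genes as higher. Leaving out Olig3 library 2 gave a median of -0.75, and leaving out Olig3 library 3 gave 0.20.

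**Figure D4:**
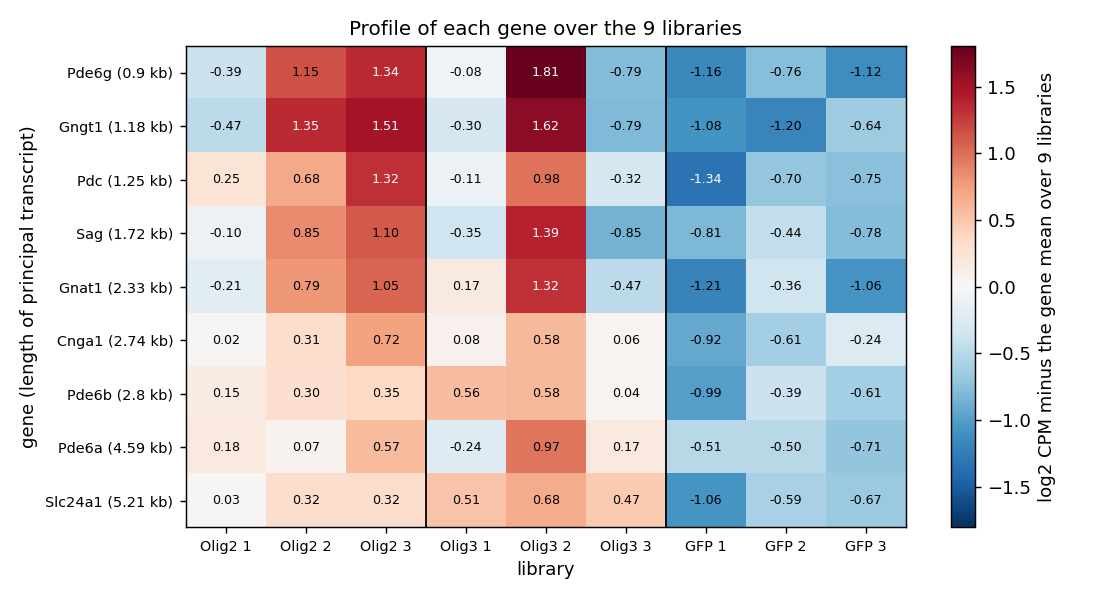
Profile of each gene over the 9 libraries, as log2 CPM with a prior count of 2 minus the gene's mean over the libraries, with genes ordered by transcript length from the shortest at the top. Red is above and blue below the gene's mean, and black lines part the Olig2, Olig3 and GFP libraries. All 27 values in the GFP columns are negative, and the highest values, up to 1.81 for Pde6g, stand in Olig3 library 2.

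Centred on each gene's mean, the 9 profiles shared their low values in the GFP libraries and differed in how far they reached in the libraries rich in Malat1. In Olig3 library 2 the values on the log2 scale were 1.81 for Pde6g, 1.62 for Gngt1, 1.39 for Sag, 1.32 for Gnat1, 0.98 for Pdc and 0.97 for Pde6a, and 0.58 to 0.68 for Cnga1, Pde6b and Slc24a1. Gnat1, at a root mean square distance of 0.20, and Pdc, at 0.21, lay closest to the mean profile of the members, and Gngt1, at 0.47, and Pde6g, at 0.41, farthest. Among 8984 genes with a mean of at least 10 CPM, the 5 outside the members that lay closest to that mean profile over the 9 libraries were Nrl (0.16), Prcd (0.17), Rcvrn (0.20), Ebpl (0.20) and Smim40 (0.22). Nrl codes for the leucine-zipper transcription factor that sets rod fate, Prcd for a protein of outer segment discs and Rcvrn for recoverin, a calcium sensor that restrains the pigment kinase. Nrl had 470.3, 586 and 823 CPM in the Olig2 libraries, 592, 973 and 366 in the Olig3 libraries and 226, 281 and 298 in the GFP libraries. That it was higher in all Olig2 and Olig3 libraries than in any GFP library follows from its choice by likeness to the members, and adds no separate evidence. Its edgeR adjusted p was 0.525 for Olig2 over GFP and 0.184 for Olig3 over GFP.

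With all 9 libraries, partners of the members within the cascade gave a smaller median difference than the members. Of 11 cascade partners tested, 0 passed edgeR's test in either comparison with GFP. Before adjustment, a p under 0.05 was reached by 7 as higher for Olig2 over GFP (2.61% of all genes), with a median log2 change of 0.53. For Olig3 over GFP it was reached by 9 as higher (5.76% of all genes), with a median of 1.02, and in both by 0 as lower. Without Olig3 library 2 the partners' median for Olig3 over GFP was 0.69, above the members' 0.64. Without the 3 libraries rich in Malat1 it was 0.68, above the members' 0.63. Gnb1, the beta subunit that completes rod transducin, had 4463, 9860 and 18251 CPM in the Olig2 libraries, 5112, 9675 and 3329 in the Olig3 libraries and 2308, 3355 and 2727 in the GFP libraries (edgeR adjusted p = 0.472 for Olig2 over GFP). Guca1a, which activates guanylate cyclase when calcium is low, had log2 changes over GFP of 1.73 with Olig2 and 2.18 with Olig3 (edgeR adjusted p = 0.511 and 0.105). Cngb1, the beta subunit that assembles with Cnga1, kept close to it, with Cnga1 at 1.20 to 1.39 times Cngb1 per kilobase in the Olig2 libraries, 0.900 to 1.34 times in the Olig3 libraries and 0.892 to 1.55 times in the GFP libraries.

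With all 9 libraries, the wider set of photoreceptor genes had lower medians than the members. For 20 genes of outer segment structure, transport and the visual cycle the median log2 change was 0.38 for Olig2 over GFP, with 0 called. An unadjusted p under 0.05 was found for 6 as higher and 1 as lower (2.61 and 2.08% of all genes). For Olig3 over GFP the median was 0.79, with 1 called (0.205% of all genes). Before adjustment 12 were higher and 1 lower (5.76 and 6.37% of all genes). The 1 called was Rdh12, a retinol dehydrogenase of photoreceptors, which rose with Olig3 to 649 ± 8.84 CPM, against 281 ± 55.7 in the GFP group (log2 change 1.21, edgeR adjusted p = 0.0454). That call was lost in 13 of 20 alternatives, 8 of the 9 that leave out 1 library among them, with adjusted p up to 0.289, and it was lost without the 3 libraries rich in Malat1 and without Olig3 libraries 1 and 3. The log2 change of Rdh12 was 0.98 to 1.32 over the 20. Reep6, of rod membrane trafficking, had log2 changes of 1.16 with Olig2 and 1.18 with Olig3 (edgeR adjusted p = 0.433 and 0.145). The gene with the lower value was Impg2, of the matrix between photoreceptors, at -0.65 and -0.58, named after its values were seen. The summed level of the 9 members was 2.37, 2.90 and 3.27 times that of these 20 genes in the Olig2 libraries, 1.69, 2.73 and 1.66 times in the Olig3 libraries, and 1.69, 1.58 and 1.62 times in the GFP libraries. The Olig2 libraries and Olig3 library 2 were above the rest in this ratio. Of 7 photoreceptor transcription factors 0 passed, with medians of 0.63 and 0.80. The factors did not move together, with log2 changes from -0.08 to 1.22 with Olig2 and from -0.05 to 1.26 with Olig3. Before adjustment 3 of the 7 factors were higher with Olig2 and 4 with Olig3 (2.61 and 5.76% of all genes). Without Olig3 library 2 their median for Olig3 over GFP was 0.74, above the members' 0.64, and the 20 outer segment genes had 0.56. Crx, a homeobox factor of rods and cones, had log2 changes of 0.63 with Olig2 and 0.80 with Olig3 (edgeR adjusted p = 0.667 and 0.145).

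Per kilobase, Gnat1 stood above its cone counterpart Gnat2, and Sag above cone arrestin, Arr3, in every library. Gnat1 was 80.3 to 135 times Gnat2 in the Olig2 libraries, 10.7 to 107 times in the Olig3 libraries and 43.8 to 122 times in the GFP libraries. Sag was 62.5 to 197 times Arr3 in the Olig2 libraries, 4.73 to 52.2 times in the Olig3 libraries and 48.1 to 106 times in the GFP libraries. Of 11 cone genes 0 passed in either comparison with GFP. At an unadjusted p under 0.05, 2 were higher with Olig2, Gngt2 and Pde6h, against 2.61% of all genes. With Olig3 8 of the cone genes were higher, against 5.76%, and 0 were lower in both. The cone genes' median log2 changes were 1.11 with Olig2 and 2.24 with Olig3. Without the 3 libraries rich in Malat1 the medians were -0.39 with Olig2, from a single library, and 2.47 with Olig3. Without Olig3 library 2 alone 4 cone genes passed for Olig3 over GFP, Gnat2, Opn1sw, Pde6c and Arr3, all higher with Olig3. That fit called far more genes of any kind, 106 of 16926 as higher, against 15 of 15609 with all libraries.

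Sums of ganglion cell and bipolar cell markers in both factor groups lay apart from those in the GFP group. Sums of Müller glia, amacrine, horizontal, microglial and endothelial markers overlapped with those in the GFP group. Of 11 ganglion cell markers tested, 0 passed, and 6 were lower before adjustment in each comparison with GFP (2.08% of all genes for Olig2 and 6.37% for Olig3), with medians of -1.81 for Olig2 and -2.22 for Olig3. Without the 3 libraries rich in Malat1 the medians were -3.21, from a single Olig2 library, and -3.11. Without Olig3 library 2 alone, Gap43 and Stmn2 passed as lower for Olig3 over GFP. That fit called 399 of 16926 genes as lower, against 17 of 15609 with all libraries. The 2 ganglion cell markers of smallest p for Olig2 were Tubb3, a neuronal tubulin, at -1.19, and Nefl, the light neurofilament, at -1.81 (edgeR adjusted p = 0.452 and 0.678). The 10 bipolar cell markers summed to 1106 to 1498 CPM in the Olig2 group, 1208 to 1446 in the Olig3 group and 629 to 651 in the GFP group. For Olig2 over GFP 1 was called higher (Pcp2), where 0.0513% of all genes were called in either direction. For Olig3 over GFP 3 were called higher (Pcp2, Grm6 and Cabp5), against 0.0961% of all genes. The Pcp2 call for Olig2 over GFP was lost in 5 of 20 alternatives, 3 of the 9 that leave out 1 library among them (edgeR adjusted p up to 0.171), and it was lost without the 3 libraries rich in Malat1. For Olig3 over GFP the calls of Pcp2 and Grm6 were each lost in 13 of 20 and that of Cabp5 in 12, with 8 of the 9 that leave out 1 library among them for each gene. Their highest adjusted p was 0.168, 0.243 and 0.379, in the order named. All 3 were lost without Olig3 libraries 1 and 3, and Pcp2 and Grm6 without the 3 libraries rich in Malat1. Reads of Pcp2 may include those of Pet100, whose gene model contains it. The 8 Müller glia markers summed to 1655 to 2965 CPM in the Olig2 group, 562 to 2222 in the Olig3 group and 1841 to 3606 in the GFP group. Their median log2 changes over GFP were -1.03 with Olig2 and -1.10 with Olig3, with 2 and 1 of the 8 above 0. Before adjustment 1 was higher and 3 lower with Olig2, and 0 higher and 4 lower with Olig3. Vim alone passed, as lower with Olig3 (log2 change -2.99, edgeR adjusted p = 0.0363), where 0.205% of all genes passed in either direction. The Vim call was lost in 11 of 20 alternatives, 8 of the 9 that leave out 1 library among them, with adjusted p up to 0.357, and it was lost without Olig3 libraries 1 and 3. Its log2 change was -3.47 to -2.32 over the 20. Lens crystallins and related genes summed to 2.71 to 6.28 CPM in the Olig2 group, 0.440 to 454 in the Olig3 group and 75.0 to 3317 in the GFP group. The 7 amacrine markers summed to 536 to 604 CPM in the Olig2 group, 374 to 763 in the Olig3 group and 204 to 580.3 in the GFP group. Horizontal cell markers summed to 140.4 to 853, 45.8 to 244 and 60.8 to 1919 CPM in the same groups, microglia and macrophage markers to 17.1 to 172, 60.8 to 204 and 26.8 to 117, and endothelial markers to 42.4 to 81.9, 37.5 to 82.3 and 39.4 to 215. None of the 6 pigment epithelium markers was tested, and they summed to at most 9.65 CPM. The part of these other cells in the members' differences was not tested.

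**Figure D5:**
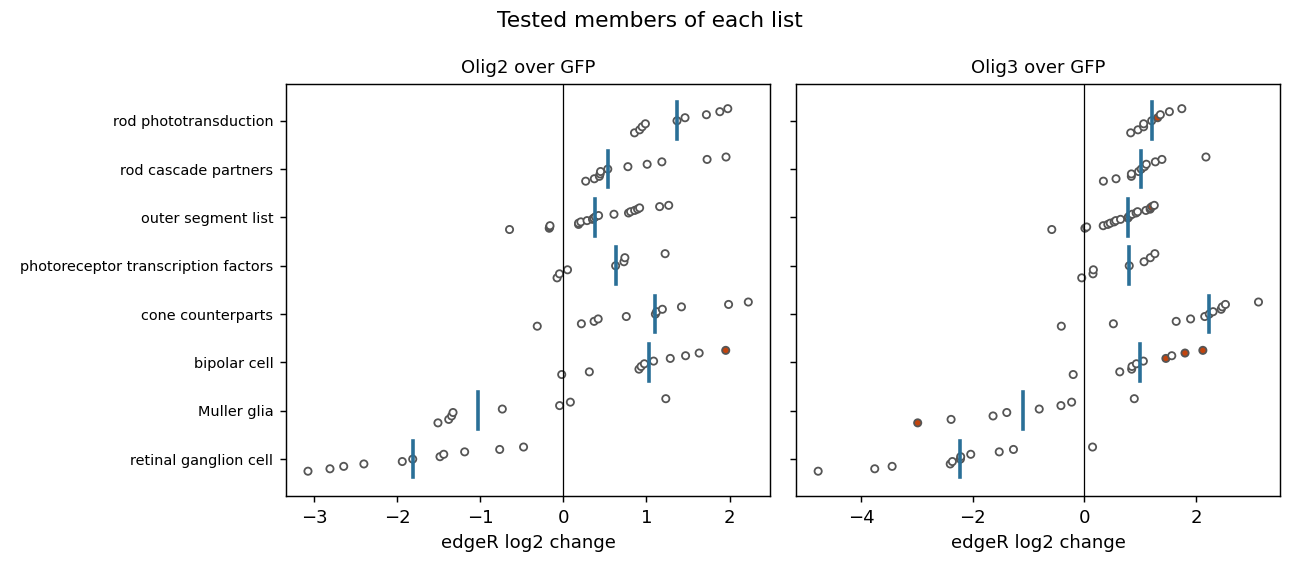
Log2 change of every tested gene of 8 lists in the comparisons of Olig2 over GFP and Olig3 over GFP. Each circle is a gene, a filled circle passed the adjusted test over all genes, and the vertical bars are list medians. The 9 rod phototransduction genes lie right of 0 in both panels, with medians of 1.37 and 1.21, and the ganglion cell markers mostly left of it, with medians of -1.81 and -2.22.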

How the data were processed

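The authors deposited 1 table of whole-number counts of reads per gene, not normalized. Per the submitters' processing notes the tools were FastQC, HISAT2 and HTSeq on mm10, while no version, filter or strand setting is given in the sources read. Reads of genes that overlap on either strand therefore cannot be told apart. Every value column was assigned to a library by its name, and no column was left out. Counts of libraries within a group differed by more than counting noise in every pair (chi-square per degree of freedom at least 29.5), and all were kept apart.

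Tests used edgeR 4.0.16 under R 4.3.3 (quasi-likelihood F test, TMM factors, filterByExpr, 1 model of group means over all 9 libraries with 6 residual degrees of freedom, common dispersion 0.532, Benjamini-Hochberg adjustment over 15609 genes, threshold 0.05). The script was tested on simulated data. The comparisons were Olig2 over GFP, Olig3 over GFP and Olig3 over Olig2. Levels are TMM-scaled CPM, and folds are ratios of group means. Levels per kilobase use the principal transcript of GENCODE M21 (APPRIS). The 95% intervals use the test's SE and degrees of freedom. A call of "not overlapping" means that the lowest library of a group exceeded the highest of the other.

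The 20 alternatives included RLE factors, library totals, other filters, DESeq2 1.42.0, limma-voom (limma 3.58.1), only the pair of groups, the replicate number as a block, each library left out, and the libraries that stood apart left out. For list genes they were added after the values were seen. The members, the 13 lists (118 genes, 116 in the table) and the libraries left out were chosen with earlier results of these data known. Besides the members, the text names list genes that passed, up to 2 per list with the smallest p for Olig2 over GFP, the 5 nearest profiles, and genes said to be named afterwards. Endothelial, lens, amacrine, horizontal, microglial and pigment epithelium genes are given as sums only. List genes given for their ratio to a member or as checks of the pick were named after their values were seen.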

Additional observations from a re-analysis of the deposited data

How the results depend on the processing

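Every log2 change of the 9 members over GFP kept its sign in all 20 alternatives, and the changes between Olig3 and Olig2 did not. Of the 8 genes called for Olig2 over GFP, the count became 0 with library totals, 176 without a filter, 116 with DESeq2, 23 in a fit of only the pair of groups, 5 without the 3 libraries rich in Malat1, 41 without Olig3 libraries 1 and 3, those with fewest genes detected, and 0 to 24 leaving out single libraries. The members called became 6 without a filter and 3 with DESeq2, and their median 0.63 without the libraries rich in Malat1. For Olig3 over GFP the 32 genes called became 556 without a filter, 625 with DESeq2, 78 with limma-voom, 0 in a fit of only the pair of groups, 20 without the libraries rich in Malat1, 0 without Olig3 libraries 1 and 3, and 0 to 505 leaving out single libraries, the highest without Olig3 library 2. The 1 member called became 0 with library totals, with the pair of groups, without the libraries rich in Malat1 and without Olig3 libraries 1 and 3, 8 without a filter, 2 with DESeq2 and with limma-voom, and 0 to 1 leaving out single libraries. The median became 0.63 without the libraries rich in Malat1, 1.90 without Olig3 libraries 1 and 3, and 0.64 to 1.43 leaving out single libraries. For Olig3 over Olig2 the 6 genes called became 140 without a filter, 105 with DESeq2, 1 with limma-voom, 2 in a fit of only the pair of groups, 0 without Olig3 libraries 1 and 3 and 2 to 160 leaving out single libraries. The median became 0.60 without Olig3 libraries 1 and 3 and -0.75 to 0.20 leaving out single libraries. No alternative called a member between the factors.

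The signs of Olig3 over Olig2 turned as follows. Without Olig3 libraries 1 and 3 the log2 changes were 0.69 for Gnat1, 0.60 for Gngt1, 0.93 for Pde6g, 0.21 for Cnga1, 0.69 for Sag and 0.17 for Pdc. Without the libraries rich in Malat1 they were 0.078 for Gnat1, -0.21 for Pde6a and 0.03 for Cnga1. Library totals gave 0.004 for Cnga1 and limma-voom -0.021 for Pde6a. Leaving out single libraries gave -0.75 to 0.22 for Gnat1, -0.31 to 0.34 for Pde6a, -1.27 to 0.27 for Pde6g, -0.31 to 0.088 for Cnga1 and -1.29 to 0.061 for Sag. The cause of these shifts was not tested, and where an alternative left 1 library in a group, its spread was taken from the remaining groups.

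Libraries of the same number correlated at -0.06 to 0.11 in their deviations from the group means, and those of different numbers at -0.115 to 0.0747. The labels state no pairing, and correlations this small neither show nor exclude one. With the replicate number as a block, 10 genes were called for Olig2 over GFP, 0 for Olig3 over GFP and 8 for Olig3 over Olig2. With that block 0 members were called for Olig3 over GFP.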
